A study of Mus musculus with 11 samples.

Results

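MamBo38 and MamBo43 are a pair of mouse mammary carcinoma lines from one tumor, and they were compared here across all genes of the count table. Both descend from tumor B, a mammary carcinoma of an FVBhuHER2 virgin female mouse, which carries a human HER2 transgene. MamBo43, the "HER2 labile" line, was cultured from that tumor and is HER2-positive. MamBo38, the "HER2 loss" line, was cultured from a HER2-negative tumor that grew after MamBo43 cells had been injected into a mouse. The comparison takes 5 of the 11 libraries in the series, 4 of MamBo38 and 1 of untreated MamBo43. Of the MamBo38 cultures, 2 were untreated, 1 had 30 µg/ml of trastuzumab for 30 days followed by 30 days without it, and 1 had 30 µg/ml for 60 days. Trastuzumab is an antibody against human HER2. The remaining libraries include 2 of MamBo43 cells kept with trastuzumab under the same schedules (MamBo43 TRT). The paper counts these cells as HER2-negative, though it could always find some HER2-positive cells in MamBo43 cultures under trastuzumab. The other 4 libraries are of MamBo89, a HER2-positive line from tumor A. Of the MamBo89 libraries 1 was untreated, 1 is an untreated one named AG3, and 1 each followed the schedules of 30 days on then 30 days off trastuzumab and of 60 days on it.

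HER2 is a receptor tyrosine kinase that pairs with other receptors of the EGF receptor family and drives growth in part of breast cancers. Cells of such carcinomas are epithelial. They adhere to each other through adherens junctions, tight junctions and desmosomes, and they hold keratin filaments. In an epithelial to mesenchymal transition (EMT), transcription factors of the Snail, Zeb and Twist families repress junction genes, many of them through E-box sequences in promoters, and the cells gain vimentin filaments and a fibronectin and collagen matrix. The comparison asks which of these and other genes differ between the lines from before and after HER2 loss in a tumor.

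Each library was read on mouse genes only, so the counts hold no row for the HER2 transgene. The mouse gene Erbb2 was at 19.1, 24, 18.5 and 17.8 CPM in MamBo38, given here and below in the order MAMBO38NT190617 (untreated), MAMBO38NT241016 (untreated), taken off trastuzumab, and 60 days of trastuzumab (replicates 1 to 4). It was at 117 CPM in MamBo43, so it was 5.91-fold lower in MamBo38 (log2 fold change -2.56 ± 0.17, edgeR adjusted p = 9.15e-05). CPM are counts per 1000000 at a library size scaled by the TMM method, and each log2 fold change is given ± its standard error. Whether reads of the human transgene were counted on Erbb2 was not tested. Total counts were 17263613 to 27127662 in the MamBo38 libraries and 26212551 in the MamBo43 library. A count of 3, taken as the floor of detection, stood for 0.113 to 0.179 CPM.

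The library of untreated MamBo43 is alone in its group. Its spread is therefore assumed to be that of the MamBo38 libraries, and the p-values measure the spread between those 4, for which no label names separate mice or tumors. The library names end in a number code, which 3 MamBo38 libraries share with each other and which MAMBO38NT241016 shares with untreated MamBo43, MAMBO43NT241016, and the remaining libraries of the series. MAMBO38NT241016 stood apart from the other 3 of its line. Of the 5073 genes called below, 1201 spanned a range of at least 2-fold among the 4 MamBo38 libraries, and 368 did so among the other 3. No pair of libraries held identical counts, and the lowest chi-square per degree of freedom among MamBo38 pairs was 7.89.

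MamBo38 differed from MamBo43 in a large part of the transcriptome and about as often in each direction. Enough counts for a test were present for 13106 genes, and 5073 of them (38.7%) were called by edgeR's quasi-likelihood test at an adjusted p under 0.1 and a log2 fold change of at least 1. MamBo38 was higher in 2558 genes (19.5%) and lower in 2515 (19.2%). MamBo43 lay outside the range of the 4 MamBo38 libraries in 10840 tested genes (82.7%), and in 5068 of the called ones. Between the pair with the same code, 5721 tested genes (43.7%) differed by at least 2-fold. That pair held a difference of at least 2-fold in the same direction in 4719 of the called genes (93.0%) and the opposite direction in 0. Both libraries of the pair also entered the fit that made the calls, so this agreement is in part built in and is no independent check. The median absolute log2 ratio of the called genes was 2.29, against a median range of 0.66 among the MamBo38 libraries.

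**Figure D1:**
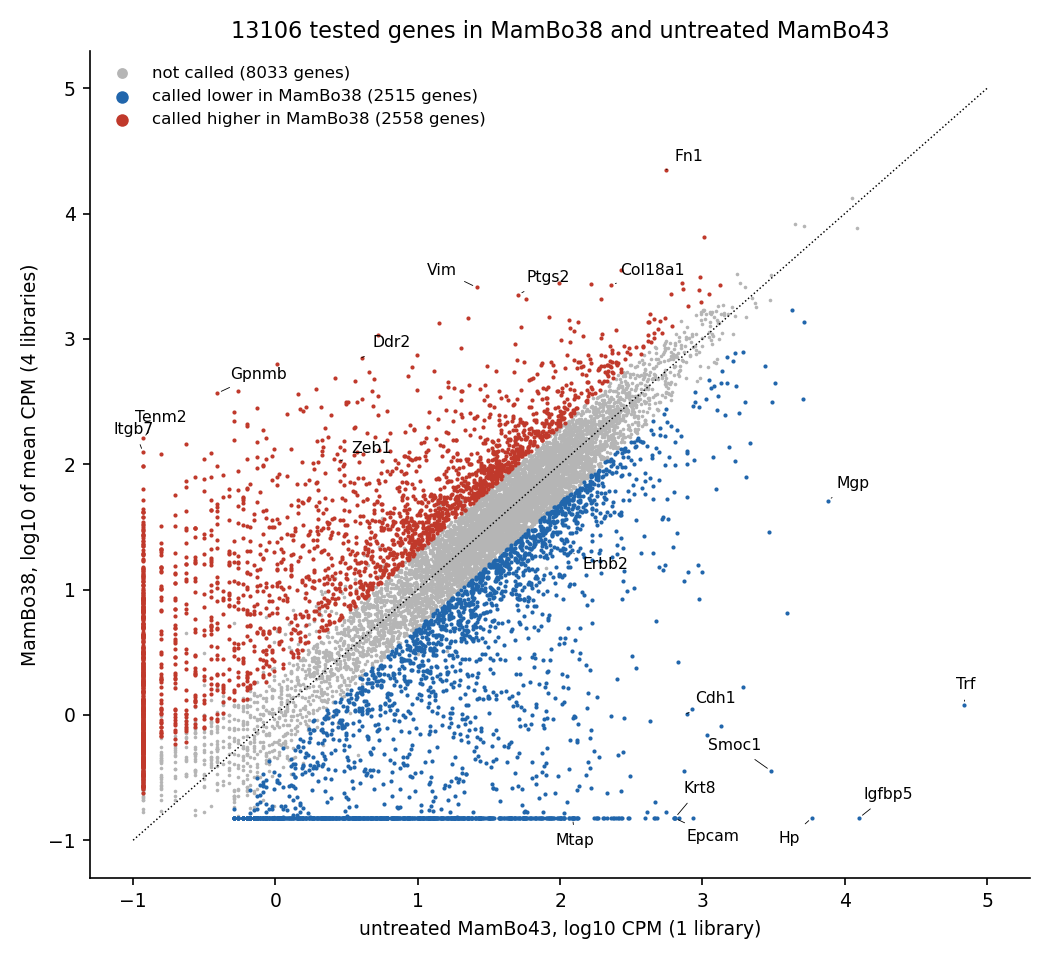
Each point is a tested gene, with its level in untreated MamBo43 (log10 CPM, 1 library) on the horizontal axis and the mean of the 4 MamBo38 libraries (log10 CPM) on the vertical axis. Levels under the floor of 3 counts are drawn at the floor; red points are the 2558 genes called higher in MamBo38 and blue points the 2515 called lower, many of which lie along the floor of MamBo38 at the bottom right.

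Over all called genes, similar shares were missing in the line where they were low, but the criteria differ. A gene had to be at or under the floor in all 4 libraries of MamBo38 but in the single library of MamBo43. The shares and the numbers of genes with 0 counts are therefore not like for like. Of the genes called lower, 559 (22.2%) were at or under the floor in all 4 MamBo38 libraries and 212 had 0 counts there. Of the genes called higher, 538 (21%) were at or under the floor in MamBo43 and 258 had 0 counts. The shares were less alike for genes at a high level in the other line. Among genes at 50 CPM or more in the line where they were high, 825 were called lower in MamBo38, and 76 of these (9.21%) were at or under the floor in all 4 MamBo38 libraries. Of 957 such genes called higher, 6 (0.627%) were at or under the floor in MamBo43. The abundant genes called lower kept a median of 22.7% of their level, with quartiles of 2.51% and 38.9%. The abundant genes called higher stood in MamBo43 at a median of 29.8% of their MamBo38 level, with quartiles of 10.6% and 40.8%. A fold of at least 256 was passed by 158 genes called lower and 34 called higher.

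The 10 genes with the largest decrease in MamBo38 included secreted proteins, proteins of the cell surface and a keratin. They were ranked by the ratio with levels set to at least 3 counts, and unfloored or fitted values would give another order. Igfbp5, a secreted binding protein of insulin-like growth factors, was at 0.241, 0, 0.298 and 0 CPM in MamBo38 and at 12635 CPM in MamBo43 (log2 fold change -16.59 ± 0.51, edgeR adjusted p = 7.60e-06). Without the library taken off trastuzumab the log2 fold change of Igfbp5 was -17.23. Trf (ENSMUSG00000032554, chromosome 9, 103204001 to 103230444 on GRCm38), which encodes the iron carrier transferrin, was at 1.4, 1.79, 0.418 and 1.17 CPM against 69011 CPM (log2 fold change -15.80 ± 0.42, edgeR adjusted p = 5.43e-06). Trf alone took 6.72% of all counts of MamBo43, and the 10 most abundant genes took 13.5% there and 6.84% to 8.48% in the MamBo38 libraries. Hp, the haemoglobin-binding protein haptoglobin, was at 0 to 0.144 CPM against 5873 CPM. Smoc1, a calcium-binding protein of the matrix, was at 0.301 to 0.391 CPM against 3024 CPM. Ptprf, a receptor tyrosine phosphatase found at cell contacts, was at 0 to 0.193 CPM against 865 CPM, and the metalloreductase Steap4 was at 0 to 0.0753 CPM against 679 CPM. Lgr6, a receptor for R-spondins, was at 0.0481 to 0.279 CPM against 642 CPM. The secreted peptide precursor Ecrg4 was at 0 to 0.0753 CPM against 632 CPM. Krt8 and Epcam, the other members of the top 10, are described with their families below. These 10 genes were chosen by the size of their difference, among genes in which MamBo43 lay outside the range of MamBo38.

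Of the 10 genes with the largest increase by the same ratio, several code for receptors and secreted factors. Tenm2, a teneurin of the cell surface, was at 216, 6.7, 241 and 180.1 CPM in MamBo38 and had 0 counts in MamBo43 (at least 1371-fold higher, edgeR adjusted p = 0.0275). Its level was thus far lower in MAMBO38NT241016 than in the others of the line. Itgb7, the integrin subunit beta 7, was at 152, 108, 135 and 103 CPM against 0.117 CPM, 1061-fold higher (95% counting interval 363 to 5144) with edgeR adjusted p = 3.52e-05. The membrane glycoprotein Gpnmb was at 320.3, 435, 344 and 379.9 CPM against 0.392 CPM (log2 fold change 9.86 ± 0.38, edgeR adjusted p = 1.32e-05). The secreted peptide gene Ostn was at 132, 32.9, 120.3 and 101 CPM against 0.117 CPM. Il1rl1, the receptor for interleukin-33, was at 451, 546, 270.1 and 278 CPM against 0.548 CPM. The actin-binding protein Avil was at 408 to 787 CPM against 1.02 CPM, Fez1, an adaptor in axonal transport, at 132 to 154 CPM against 0.235 CPM, and the retinoic acid-binding protein Crabp1 at 36.8 to 126 CPM against 0 counts. Ugt1a6b was at 93.6 to 132 CPM against 0.157 CPM, but it shares exons with the other Ugt1a genes and its level is uncertain.

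Among adherens junction genes, those of E-cadherin and plakoglobin were lower in MamBo38, those of the alpha-, beta- and p120-catenins were not called, and the nectins were split. Of 11 tested genes, 5 were called lower, 2 higher and 4 were not called, where 19.2% of all tested genes were lower and 19.5% higher. These shares of all tested genes stand beside the counts of every list below. The median log2 ratio, with levels set to at least 3 counts, was -0.81 against 0.02 over all tested genes. Cdh1 (ENSMUSG00000000303, chromosome 8, 106603351 to 106670246 on GRCm38), which encodes E-cadherin, was at 0.914, 0.837, 0.835 and 1.51 CPM in MamBo38 and at 775 CPM in MamBo43. It was 757-fold lower (log2 fold change -9.51 ± 0.23, edgeR adjusted p = 4.87e-06). Epcam (ENSMUSG00000045394), the epithelial cell adhesion molecule, was at 0.0481, 0.279, 0.119 and 0.0377 CPM against 633 CPM (log2 fold change -12.41 ± 0.32, edgeR adjusted p = 5.39e-06). Without MAMBO38NT241016 the log2 fold change of Epcam was -13.18. Nectin4 was at 0.113 to 0.502 CPM against 78.1 CPM, and Jup, the gene of plakoglobin, was at 15.7, 26.1, 16.5 and 20.6 CPM against 453 CPM. The linker Afdn (afadin) was 2.62-fold lower. The alpha-, beta- and p120-catenin genes Ctnna1, Ctnnb1 and Ctnnd1 did not reach a 2-fold difference, with log2 fold changes of -0.53, 0.58 and -0.81. Of the other nectins, Nectin2 was 3.46-fold higher and Nectin3 was at 23.8, 14.3, 22.7 and 24.1 CPM against 0.157 CPM (log2 fold change 7.03 ± 0.58, edgeR adjusted p = 2.08e-04).

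Tight junction genes were mostly called lower in MamBo38, and many of them were under detection there. Of 22 tested genes, 18 were called lower, of which 12 were at or under the floor in all 4 MamBo38 libraries, 2 were called higher and 2 were not called. Those 12 passed the count filter only through their level in MamBo43. With at least 10 counts required in every library, 6 genes of the list were tested and 4 called. The median log2 ratio was -6.89. The claudin Cldn10 was at 0 to 0.112 CPM in MamBo38 against 270.1 CPM in MamBo43, Cldn7 at 0.0481 to 0.298 CPM against 246 CPM and Cldn3 at 0 to 0.0963 CPM against 234 CPM. Lsr, a protein of tricellular junctions, had 1 count in 1 MamBo38 library and none in the other 3, against 199 CPM (edgeR adjusted p = 5.09e-06). Ocln, the gene of occludin, had 0 counts in all 4 MamBo38 libraries and was at 70.6 CPM in MamBo43, at least 468-fold lower (edgeR adjusted p = 3.10e-04). The polarity gene Crb3 also had 0 counts in all 4 MamBo38 libraries, against 17.9 CPM (at least 118-fold lower, edgeR adjusted p = 0.00105). The plaque protein Cgn (cingulin) was at 0 to 0.0753 CPM against 76.2 CPM. The ZO proteins, scaffolds under the junction, differed among themselves. Tjp3 was at 0 to 0.119 CPM against 44.9 CPM, and Tjp1 at 88.6 to 104 CPM against 192 CPM, which was not called (log2 fold change -0.99 ± 0.13, edgeR adjusted p = 0.00146). Against this trend, the claudin Cldn1 was at 6.16, 11.8, 7.16 and 9.34 CPM in MamBo38 and at 0.548 CPM in MamBo43 (log2 fold change 3.96 ± 0.55, edgeR adjusted p = 0.00166). Cldn15 was 2.98-fold higher (log2 fold change 1.55 ± 0.64, edgeR adjusted p = 0.083), and its call was lost without MamBo38 replicate 1, 3 or 4, where the adjusted p was 0.111, 0.154 and 0.127.

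The promoters of 5 of these genes are printed because their letters hold the E-box CAGGTG, or its reverse complement CACCTG, which Snail and Zeb proteins are known to bind. Each run is the 250 bases before a start of the gene, 5′ to 3′ on the gene's strand, from RefSeq on build GRCm38.p6, with the E-box in capitals. Crb3, Ocln and Cldn7 have 2 such windows each, not all of which are printed. The window of Epcam lies at chr17:87635729-87635978 on the plus strand and that of Lsr at chr7:30973470-30973719 on the minus strand. The window of Crb3 lies at chr17:57061951-57062200 on the plus strand, that of Ocln at chr13:100552499-100552748 on the minus strand and that of Cldn7 at chr11:69965171-69965420 on the plus strand.
Epcam: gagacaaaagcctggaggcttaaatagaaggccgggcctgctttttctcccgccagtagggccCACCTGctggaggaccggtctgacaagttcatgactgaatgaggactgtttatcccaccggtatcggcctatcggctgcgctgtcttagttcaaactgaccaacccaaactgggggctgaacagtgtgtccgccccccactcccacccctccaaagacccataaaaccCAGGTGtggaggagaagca
Lsr: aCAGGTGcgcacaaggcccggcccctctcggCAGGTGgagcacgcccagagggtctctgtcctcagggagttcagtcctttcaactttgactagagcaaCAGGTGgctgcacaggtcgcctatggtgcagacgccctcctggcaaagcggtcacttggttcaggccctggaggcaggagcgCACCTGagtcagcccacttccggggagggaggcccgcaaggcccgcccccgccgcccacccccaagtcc
Crb3: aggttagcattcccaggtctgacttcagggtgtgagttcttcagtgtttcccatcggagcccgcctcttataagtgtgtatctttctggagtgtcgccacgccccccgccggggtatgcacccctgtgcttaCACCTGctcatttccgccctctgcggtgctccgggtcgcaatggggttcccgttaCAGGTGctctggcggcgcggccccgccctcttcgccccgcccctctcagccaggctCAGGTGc
Ocln: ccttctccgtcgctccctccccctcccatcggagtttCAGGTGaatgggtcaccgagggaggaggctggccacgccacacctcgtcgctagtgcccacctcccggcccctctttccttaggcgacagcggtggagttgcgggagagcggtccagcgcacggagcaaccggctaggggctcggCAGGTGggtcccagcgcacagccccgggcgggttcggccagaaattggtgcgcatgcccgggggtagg
Cldn7: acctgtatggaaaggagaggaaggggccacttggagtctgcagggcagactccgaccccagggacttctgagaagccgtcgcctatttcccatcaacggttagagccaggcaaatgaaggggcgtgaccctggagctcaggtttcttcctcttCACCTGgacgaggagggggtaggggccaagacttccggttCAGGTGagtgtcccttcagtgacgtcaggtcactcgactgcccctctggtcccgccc

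These windows hold 2, 4, 3, 2 and 2 copies, counted on both strands. In windows of 300 bases, 250 before and 50 after the start, the E-box was present in 6098 of all 27025 genes with a promoter in the table (22.6%). It was present in 11 of 18 matched tight junction genes (61.1%), in 598 of 1901 matched genes called lower (31.5%), in 397 of 1953 called higher (20.3%) and in 1183 of 6492 not called (18.2%). Among other lists it was present in 2 of 8 matched adherens junction genes (25%), 2 of 2 desmosome genes, 5 of 7 keratins (71.4%) and 3 of 9 epithelial factors (33.3%). It was present in 1 of 11 EMT transcription factors (9.09%), 1 of 17 matrix glycoproteins (5.88%), 1 of 14 cytoskeleton genes (7.14%) and 4 of 27 collagens (14.8%). A match is a description of the letters and no sign of binding.

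Genes of desmosomes, which anchor keratin filaments at cell contacts, fell together in MamBo38. Of 10 tested desmosome genes, 9 were called lower and 1 was not called, with a median log2 ratio of -4.28. Dsg2, a desmosomal cadherin, had 0 counts in all 4 MamBo38 libraries and was at 178 CPM in MamBo43, at least 1179-fold lower (edgeR adjusted p = 1.58e-04). Dsp, the gene of desmoplakin, was at 0.337, 0.279, 0.179 and 0.151 CPM against 214 CPM (log2 fold change -9.81 ± 0.21, edgeR adjusted p = 3.66e-06), and the cadherin Dsc2 was at 0 to 0.167 CPM against 79.8 CPM. Among the plakophilins, which link the cadherins to desmoplakin, Pkp1 was 73.8-fold lower and Pkp3 26.3-fold lower. Pkp4 was at 58.9 to 97.9 CPM against 67.9 CPM and was not called.

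Of 11 tested keratin genes, 6 were called lower, 1 higher and 4 were not called. The keratins of simple epithelia carried the difference. Krt8 was at 0.0481, 0.279, 0.119 and 0.113 CPM in MamBo38 and at 642 CPM in MamBo43 (log2 fold change -12.16 ± 0.26, edgeR adjusted p = 3.66e-06), and Krt18, its filament partner, was at 0.241, 1.06, 0.716 and 0.753 CPM against 1086 CPM (log2 fold change -10.62 ± 0.33, edgeR adjusted p = 7.86e-06). Krt7 was at 0.0597 to 0.279 CPM against 260.4 CPM. Krt14, a keratin of basal cells, was already low in MamBo43 at 2.39 CPM and was at 0 to 0.0753 CPM in MamBo38. The keratin called higher, Krt13, was at 0.578, 2.34, 0.179 and 0.452 CPM against 0 counts, and its call was lost without MamBo38 replicate 1, where the edgeR adjusted p was 0.107.

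Regulators of epithelial identity were mostly lower in MamBo38, while Gata3 and Klf5 were not called. Of 18 tested genes of this kind, 14 were called lower, 0 higher and 4 were not called, with a median log2 ratio of -5.52. Esrp1, a splicing regulator of epithelial cells, was at 0.0481, 0, 0 and 0 CPM in MamBo38 and at 395 CPM in MamBo43 (edgeR adjusted p = 3.66e-06). Ehf, an ETS factor of epithelia, was at 0 to 0.0558 CPM against 307 CPM, and Elf5, an ETS factor of the alveolar lineage of the mammary gland, at 0 to 0.0558 CPM against 31.4 CPM. Grhl2, a grainyhead factor that activates junction genes, was at 0, 0.391, 0 and 0 CPM against 127 CPM (edgeR adjusted p = 9.13e-05). Its reads in MamBo38 came from MAMBO38NT241016 alone. Foxa1, a partner of the oestrogen receptor, was 26.5-fold lower, and Trp63, a factor of basal cells, 37-fold lower. Gata3, a factor of luminal cells, was at 34.1, 40.3, 33.5 and 34.3 CPM against 36 CPM (log2 fold change -0.02 ± 0.16, edgeR adjusted p = 0.937), and Klf5 was at 27, 43.7, 25.1 and 28.4 CPM against 28.9 CPM (log2 fold change 0.11 ± 0.32, edgeR adjusted p = 0.797).

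EMT transcription factors were mostly higher in MamBo38, with Zeb, Hmga2 and Twist2 in front and with Twist1 not called. Of 18 tested genes, 11 were called higher, 3 lower and 4 were not called, with a median log2 ratio of 1.83. Zeb1 (ENSMUSG00000024238), a repressor of Cdh1, was at 106, 109.8, 98.4 and 111 CPM against 2.86 CPM in MamBo43 (log2 fold change 5.21 ± 0.19, edgeR adjusted p = 1.15e-05). Zeb2 was at 138, 106, 131 and 128 CPM against 3.76 CPM (log2 fold change 5.06 ± 0.25, edgeR adjusted p = 2.85e-05). The chromatin protein Hmga2 was at 419.6, 580.2, 395 and 455 CPM against 3.6 CPM (log2 fold change 7.0 ± 0.36, edgeR adjusted p = 3.57e-05), and Twist2 was at 15.3, 20.1, 17.1 and 15.3 CPM against 0.117 CPM (edgeR adjusted p = 6.15e-05). In each of them the libraries of the lines did not overlap, which was also so in 82.7% of all tested genes. The MamBo38 libraries lay within 2-fold of each other in these genes.

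The Snail genes Snai1 and Snai2 were 3.06-fold higher and 5.37-fold higher, while Snai3 was at 0 to 0.0558 CPM against 1.1 CPM. Prrx2 and Foxc2 were 8.6-fold higher and 10.6-fold higher. Twist1 was at 48, 59.6, 47.2 and 52.7 CPM against 54.3 CPM (log2 fold change -0.07 ± 0.17, edgeR adjusted p = 0.759). The forkhead genes Foxq1 and Foxc1 went the other way and were 85.2-fold lower and 3.81-fold lower.

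**Figure D2:**
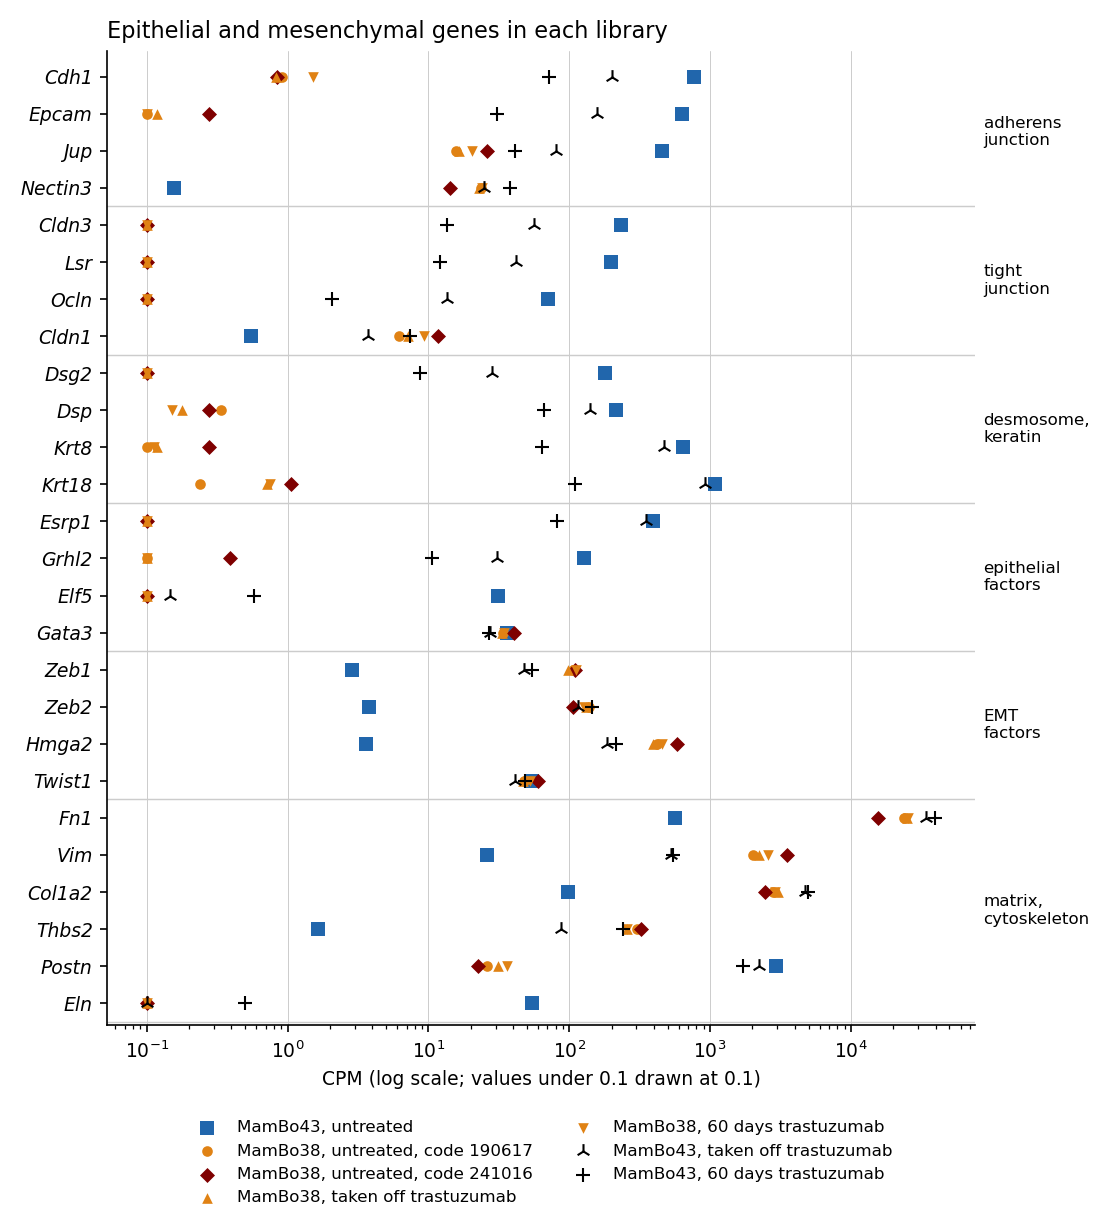
Level of epithelial and mesenchymal genes in each library (CPM, log scale, values under 0.1 drawn at 0.1), grouped by role. Blue squares are untreated MamBo43, orange and dark red symbols the 4 MamBo38 libraries, and black symbols the MamBo43 libraries exposed to trastuzumab, which come from the same line as untreated MamBo43; Epcam was at 633 CPM in untreated MamBo43, at 159 and 30.7 CPM in the exposed libraries and at no more than 0.279 CPM in MamBo38.

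The collagens split by type. Chains of the fibrillar collagens I, III and V and of the basement membrane collagen IV were among those higher in MamBo38, and the chains of the collagens II, IX and XI, which are known from cartilage, were lower. Of 34 tested collagen genes, 14 were called higher, 10 lower and 10 were not called, with a median log2 ratio of 1.01. Col1a2 was at 2817, 2454, 3057 and 2902 CPM in MamBo38 and at 98 CPM in MamBo43 (log2 fold change 4.84 ± 0.22, edgeR adjusted p = 2.35e-05). Col1a1, its partner chain in type I collagen, was at 161, 275, 191 and 214 CPM against 115 CPM and was not called (log2 fold change 0.87 ± 0.29, edgeR adjusted p = 0.0458). Col3a1 was 18.9-fold higher, Col5a1 19.9-fold higher and Col5a2 10.9-fold higher. Of the type IV collagens, which form basement membranes, Col4a1 was 13.7-fold higher and Col4a2 7.69-fold higher. Col18a1, the source of endostatin, was at 2949, 2194, 2993 and 2652 CPM against 229.5 CPM. Col14a1 was 172-fold higher (95% counting interval 30.9 to 6788).

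In the opposite direction, Col9a1 was at 0, 0.0558, 0 and 0 CPM in MamBo38 against 476 CPM (edgeR adjusted p = 3.66e-06), Col9a2 at 0 to 0.0481 CPM against 116 CPM and Col9a3 at 1.56 to 2.39 CPM against 111 CPM. Col2a1 was 151-fold lower, Col11a1 129.5-fold lower and Col11a2 14.9-fold lower. Acan, the gene of the cartilage proteoglycan aggrecan, had 0 counts in all 4 MamBo38 libraries and 22.6 CPM in MamBo43 (at least 149.7-fold lower). Sox9, a regulator of these genes in cartilage, was at 70.1, 129, 75.2 and 85.3 CPM against 144 CPM and was not called (log2 fold change -0.69 ± 0.32, edgeR adjusted p = 0.115). Acan and Sox9 were added after the collagen values had been seen.

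Matrix glycoproteins and proteoglycans were split in a similar way, with 14 of 26 tested genes called higher, 10 lower and 2 not called. The median log2 ratio was 2.11. Fn1 (ENSMUSG00000026193, chromosome 1, 71585520 to 71653200 on GRCm38), the gene of fibronectin, was at 23750, 15589, 25088 and 25388 CPM in MamBo38 and at 559 CPM in MamBo43 (log2 fold change 5.33 ± 0.41, edgeR adjusted p = 1.58e-04). It took 1.56% to 2.49% of all counts of the MamBo38 libraries and 0.0545% of those of MamBo43. Thbs2 was 174-fold higher, Nid1, a linker protein of basement membranes, 121-fold higher, Tgfbi 99.6-fold higher and the proteoglycan Vcan 39.7-fold higher. Dcn, the gene of decorin, was 11.7-fold higher and Sparc 3.13-fold higher.

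Genes called lower included further well-known genes of the mesenchymal matrix. Mgp, an inhibitor of calcification, was at 28.6, 72.7, 42 and 62.2 CPM in MamBo38 against 7593 CPM (log2 fold change -7.21 ± 0.42, edgeR adjusted p = 5.59e-05). Postn, the gene of periostin, was at 26.1, 22.4, 31.3 and 36.3 CPM against 2952 CPM (log2 fold change -6.67 ± 0.23, edgeR adjusted p = 9.80e-06). The elastic fibre genes Eln and Fbn2 were at 0 counts and 0 to 0.119 CPM against 54.8 and 64.7 CPM. Fbln2 was 71.1-fold lower, Ccn2 (connective tissue growth factor) 57.6-fold lower, Thbs1 25.3-fold lower and Tnc, the gene of tenascin C, 23.6-fold lower. The thrombospondin genes Thbs1 and Thbs2 thus went in opposite directions.

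Enzymes that modify and crosslink collagen were higher in 7 of 12 tested genes and lower in 2. The lysyl oxidases Loxl1 and Loxl2 were at 84.1 to 108 CPM and 49.9 to 68.8 CPM in MamBo38 against 0.822 and 0.587 CPM, 119-fold higher and 94.2-fold higher. Lox was 11.5-fold higher and the prolyl hydroxylase P4ha1 4.29-fold higher, while Loxl4 was 3.81-fold lower. Of 12 tested matrix metalloproteinases, 5 were called higher (41.7%) and 3 lower (25%), beside 19.5% and 19.2% of all tested genes. Mmp2, a gelatinase, was at 503, 383, 562 and 569 CPM against 8.54 CPM (log2 fold change 5.88 ± 0.35, edgeR adjusted p = 6.03e-05), and Mmp19 was 27.4-fold higher. Mmp15, a membrane-bound enzyme, was at 0.289, 1.06, 0.239 and 0.264 CPM against 187 CPM (log2 fold change -8.70 ± 0.44, edgeR adjusted p = 3.16e-05). Without MAMBO38NT241016 the log2 fold change of Mmp15 was -9.44. Mmp14, the activator of Mmp2, was at 422 to 546 CPM against 360.2 CPM and was not called. Of the 4 inhibitors, Timp1 was at 54.3, 53.8, 54.7 and 53.6 CPM against 0.587 CPM (log2 fold change 6.51 ± 0.20, edgeR adjusted p = 7.78e-06) and Timp2 3.31-fold higher, whereas Timp3 was 2.47-fold lower and Timp4 had 0 counts against 0.822 CPM, a call that was lost with DESeq2. In the pair with the same code Timp3 did not reach a 2-fold difference.

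Of 15 tested genes of the mesenchymal cytoskeleton, 7 were called higher, 1 lower and 7 were not called, with a median log2 ratio of 1.0. Vim (ENSMUSG00000026728, chromosome 2, 13573927 to 13582826 on GRCm38), the gene of vimentin, was at 2007, 3508, 2240 and 2576 CPM in MamBo38 and at 25.9 CPM in MamBo43 (log2 fold change 6.64 ± 0.47, edgeR adjusted p = 1.17e-04). Tpm2, a tropomyosin, was 33-fold higher. The contractile genes Tagln and Acta2 were low in both lines and were called in opposite directions. Tagln was called lower, at 0.112 to 0.537 CPM against 1.88 CPM, a call that was lost with the untreated libraries alone. Acta2, smooth muscle actin, was called higher, at 9.05, 26.6, 8.47 and 7.38 CPM against 1.29 CPM. The caveola genes, which shape small pits of the plasma membrane, were called higher in 6 of 7, with Cavin3 84.4-fold higher, Cavin1 24.3-fold higher and Cav1 7.87-fold higher, and Cav2 was not called. N-cadherin (Cdh2) was at 26.3, 34.6, 27.6 and 25.1 CPM against 36.1 CPM and was not called (log2 fold change -0.35 ± 0.20, edgeR adjusted p = 0.193), while Cdh13 was 4.35-fold higher.

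Integrins, the receptors for matrix, differed by subunit. Of 22 tested genes that the symbol pattern Itga or Itgb took in, 8 were called higher (36.4%) and 4 lower (18.2%). Over all tested genes 19.5% were higher and 19.2% lower, so the share called lower was near that of all genes. The pattern also took in Itgb3bp, Itgb1bp1 and Itgbl1, which are no integrin subunits. Itga5, the alpha chain of the fibronectin receptor, was at 405, 626, 409 and 382 CPM against 16.4 CPM (log2 fold change 4.79 ± 0.41, edgeR adjusted p = 2.27e-04), and Itga11, of a collagen receptor, was 7.76-fold higher. Itgb2, a subunit of leukocyte integrins, was 22.2-fold higher. Itga3, of a laminin receptor, was at 33.8, 42.7, 35.1 and 35.2 CPM against 574 CPM (log2 fold change -3.97 ± 0.14, edgeR adjusted p = 1.06e-05), and Itgb6 and Itgb3 were 466-fold lower (95% counting interval 191 to 2705) and 22.8-fold lower. Itgb1 (CD29), the beta chain shared by many of these receptors, was at 829.5, 906, 719.6 and 835 CPM against 905 CPM and was not called (log2 fold change -0.14 ± 0.15, edgeR adjusted p = 0.485).

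Receptor tyrosine kinases were called lower in MamBo38 more often than higher, and those called higher include receptors for PDGF and for collagen. Of 39 tested genes, 19 were lower (48.7%), 9 higher (23.1%) and 11 not called, with a median log2 ratio of -1.40. The shares of all tested genes were 19.2% lower and 19.5% higher. In the EGF receptor family, Erbb3, the usual partner of HER2, was at 3.42, 5.69, 2.92 and 3.92 CPM against 128 CPM (log2 fold change -5.0 ± 0.27, edgeR adjusted p = 4.34e-05), and Egfr was at 16.4, 34.1, 16.3 and 15.2 CPM against 103 CPM (log2 fold change -2.34 ± 0.41, edgeR adjusted p = 0.00409). Kit, the receptor for stem cell factor, was at 0 to 0.0558 CPM against 239 CPM (edgeR adjusted p = 3.66e-06). The neurotrophin receptors Ntrk2 and Ntrk3 were at 0 counts and 0 to 0.144 CPM against 122 and 100.5 CPM. Fgfr1 was 3.68-fold lower and Igf1r 3.98-fold lower.

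Among those called higher, Ddr2, a receptor for fibrillar collagen, was at 778, 644, 686 and 725 CPM in MamBo38 and at 4.03 CPM in MamBo43 (log2 fold change 7.45 ± 0.24, edgeR adjusted p = 8.41e-06), while Ddr1, its relative in epithelia, was 5.41-fold lower. Pdgfra was at 940, 816, 930.4 and 992 CPM against 48.1 CPM (log2 fold change 4.26 ± 0.20, edgeR adjusted p = 2.46e-05). Pdgfrb was at 92.5, 114, 103 and 128 CPM against 50.9 CPM (log2 fold change 1.10 ± 0.21, edgeR adjusted p = 0.00545), and its adjusted p against a 2-fold difference was 0.356. Ror2, a receptor for Wnt5a, was 24.1-fold higher and Ephb2 20.0-fold higher. Axl and Met were not called, with log2 fold changes of -0.07 (standard error 0.20) and 0.15 (standard error 0.26).

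The ligands were mixed. Of 31 tested growth factor ligands, 14 were called lower, 11 higher and 6 were not called. Gas6, the ligand of Axl, was at 0.529, 1.17, 0.716 and 0.828 CPM in MamBo38 and at 1340.2 CPM in MamBo43 (log2 fold change -10.69 ± 0.23, edgeR adjusted p = 3.66e-06). Tgfa, a ligand of Egfr, had 0 counts in all 4 MamBo38 libraries against 39 CPM (at least 258-fold lower), and Ereg, also of the EGF family, was at 158, 166, 106 and 122 CPM against 2.15 CPM (log2 fold change 6.0 ± 0.42, edgeR adjusted p = 1.09e-04). Hgf, the ligand of Met, was at 28.3, 7.53, 19 and 21.8 CPM against 0.0392 CPM (edgeR adjusted p = 0.00259). Fgf7 and Fgf10, ligands of Fgfr2 that are known as mesenchymal products, were at 46.8 to 85.8 CPM and 9.82 to 16.2 CPM against 0.627 CPM and 0 counts. Fgfr2 itself was 17.7-fold lower. Pdgfb was 640.4-fold lower (95% counting interval 169.9 to 5066), and Pdgfd was at 0.0481, 0.502, 0.0597 and 0.0753 CPM against 12.8 CPM. Csf1 was 3.58-fold higher. Vegfa was at 517, 419, 589 and 585 CPM against 213 CPM (log2 fold change 1.31 ± 0.23, edgeR adjusted p = 0.0042), and in the pair with the same code its log2 ratio was 0.98, under the 2-fold limit.

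**Figure D3:**
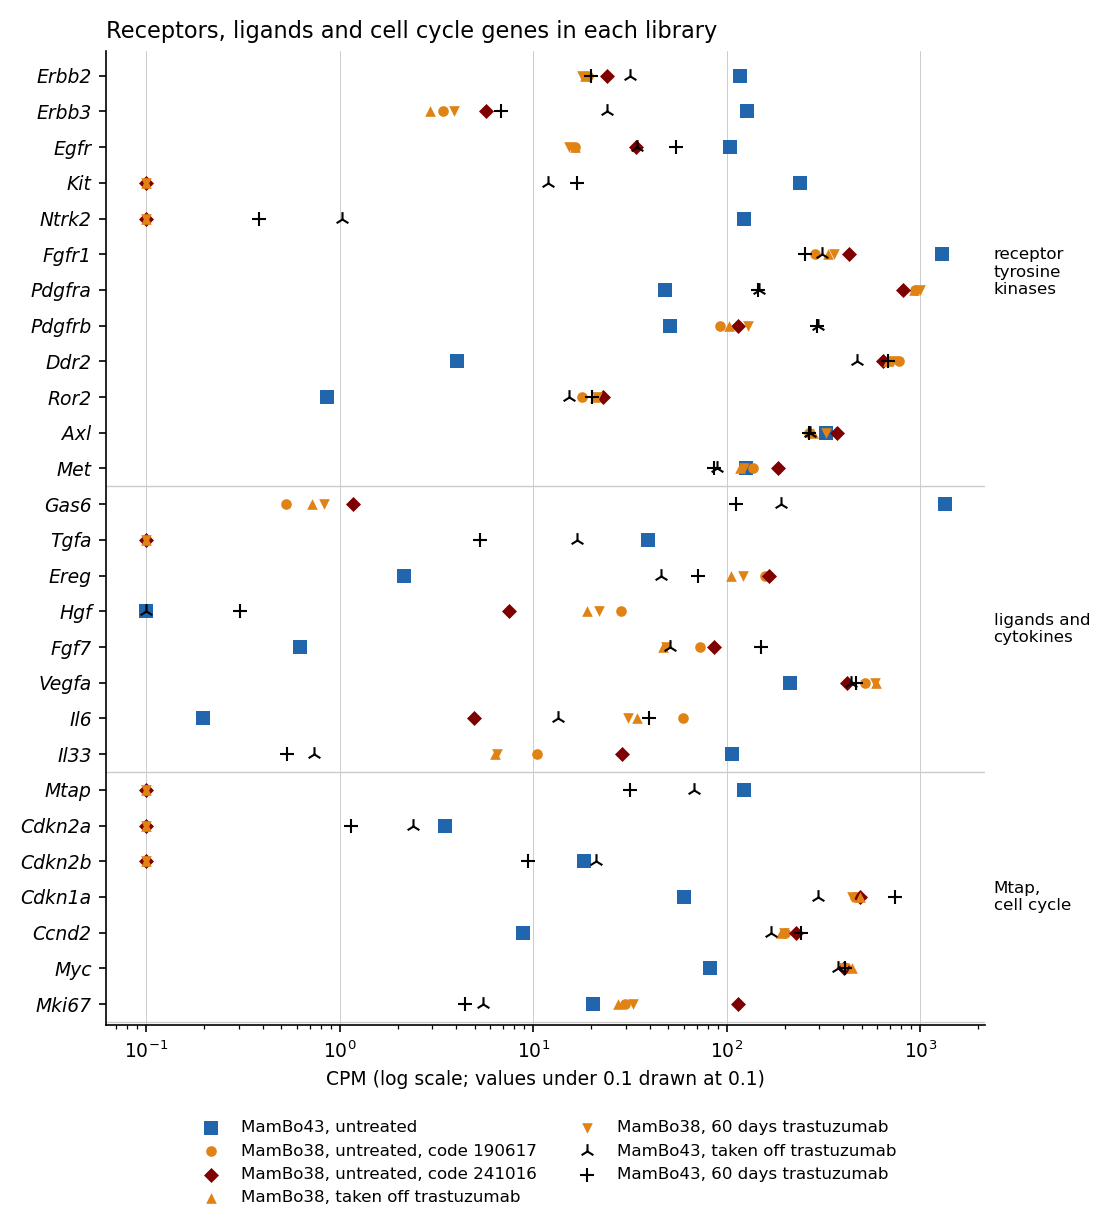
Level of receptor, ligand and cell cycle genes in each library (CPM, log scale, values under 0.1 drawn at 0.1), with the same symbols as in the plot of epithelial and mesenchymal genes. Ddr2 and Pdgfra stand higher and Kit, Ntrk2 and Gas6 lower in all 4 MamBo38 libraries than in untreated MamBo43, while Axl and Met lie together.

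Among 12 tested genes of surface markers used for stem-like cells, 4 were called higher (33.3%) and 3 lower (25%). For all tested genes these shares were 19.5% and 19.2%. Cd24a was at 3.42, 1.28, 2.62 and 2.07 CPM in MamBo38 and at 342 CPM in MamBo43 (log2 fold change -7.18 ± 0.32, edgeR adjusted p = 2.08e-05), and Cd44 was at 185, 289.9, 175 and 194 CPM against 77.6 CPM (log2 fold change 1.44 ± 0.32, edgeR adjusted p = 0.0107). Ly6a, the gene of Sca1, was at 187, 214, 204 and 180.3 CPM against 3.56 CPM (log2 fold change 5.78 ± 0.22, edgeR adjusted p = 1.26e-05). Procr was 87.7-fold higher and Eng 43.5-fold higher, and Prom1 was 8321-fold lower (95% counting interval 1827 to 402100). The study measured Cd24, Cd44, Sca1 and CD29 on these lines, so these genes were chosen with the lines in view.

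Genes of luminal and secretory mammary cells were lower in 17 of 22 tested genes and higher in 1, with a median log2 ratio of -3.98. Aqp5, a water channel of secretory epithelia, was at 0.337, 0.391, 0.298 and 0.414 CPM in MamBo38 against 738 CPM (log2 fold change -10.96 ± 0.14, edgeR adjusted p = 1.43e-06). Lcn2, a secreted iron-siderophore binding protein, was at 10.6, 0.725, 7.34 and 7.15 CPM against 3922 CPM (log2 fold change -9.23 ± 0.80, edgeR adjusted p = 2.53e-04). The casein genes Csn1s1, Csn2 and Csn3 were at 0 to 0.0597 CPM, 0 counts and 4.03 to 5.37 CPM against 33.4, 17.7 and 69.9 CPM. The hormone receptors Pgr (progesterone) and Prlr (prolactin) were at 0 to 0.0481 CPM and 0 counts against 27.3 and 28.9 CPM, while Esr1 (oestrogen) was at 19.7, 25.8, 19.4 and 24.7 CPM against 32.9 CPM and was not called. Stat5a, which transmits the prolactin signal, was 12.8-fold lower and Stat5b 5.12-fold lower, and reads could be split between these similar genes. The exception was Xdh, xanthine dehydrogenase, at 775, 350.4, 772 and 705 CPM against 55.5 CPM (log2 fold change 3.55 ± 0.54, edgeR adjusted p = 0.00243). Spp1, the gene of osteopontin, was at 6885 to 8785 CPM against 12114 CPM and was not called.

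Cytokine genes went both ways, with 7 of 25 tested called higher (28%), 8 lower (32%) and 10 not called. Of all tested genes, 19.5% were higher and 19.2% lower. Il6 was at 59.2, 4.97, 34.5 and 31 CPM in MamBo38 and at 0.196 CPM in MamBo43 (log2 fold change 7.33 ± 1.92, edgeR adjusted p = 0.0197). MAMBO38NT241016 was the lowest of the line and still above MamBo43. The receptor gene Il6ra was 10.7-fold higher, the shared chain Il6st 2.27-fold higher, and Stat3, which transmits the signal, was at 312, 196, 305 and 302 CPM against 419.8 CPM and was not called (log2 fold change -0.59 ± 0.25, edgeR adjusted p = 0.0949). In the pair with the same code the log2 ratio was 0.89 for Il6st and -1.10 for Stat3. The chemokine Ccl7 was 88.8-fold higher, and the neutrophil factors Csf3 and Cxcl5 were 254-fold lower and 5.78-fold lower. Cxcl1, another of them, was at 52.5, 144, 34.5 and 37.6 CPM against 452 CPM. Il33 was at 10.5, 28.9, 6.32 and 6.48 CPM against 106 CPM (log2 fold change -3.04 ± 0.71, edgeR adjusted p = 0.0132), opposite to its receptor gene Il1rl1. Without MAMBO38NT241016 the log2 fold change of Il33 was -3.78. Il1rn, the antagonist of interleukin-1, was at 0 to 0.0481 CPM against 27.6 CPM.

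Of 30 tested genes of TGF-beta and BMP signalling, 12 were called lower (40%), 4 higher (13.3%) and 14 were not called. The shares of all tested genes were 19.2% lower and 19.5% higher. Among ligands, Tgfb3 was at 23.7, 28.9, 27.3 and 32.4 CPM against 665 CPM (log2 fold change -4.57 ± 0.15, edgeR adjusted p = 9.80e-06), Tgfb1 was at 69.3, 60.8, 80.8 and 79.9 CPM against 85 CPM and was not called, and Inhbb was 207-fold lower. Bmp6 was 119-fold higher, Bmp4 8.07-fold lower and the BMP antagonist Grem1 42.8-fold higher. The receptors Tgfbr1 and Tgfbr2 and the mediators Smad2, Smad3 and Smad4 were not called. The feedback gene Skil was 6.7-fold lower. In the Notch pathway 5 of 10 tested genes were lower and 1 higher. The receptors Notch1 and Notch3 were 5.65-fold lower and 11.6-fold lower, and the target Hey1 was 42.1-fold lower. Of the ligands, Dll1 was at 1.44, 4.35, 1.43 and 1.2 CPM against 49 CPM, and Jag1 was 8.75-fold higher.

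Of 26 tested Wnt genes, 12 were called lower (46.2%), 6 higher (23.1%) and 8 were not called, beside 19.2% and 19.5% of all tested genes. The ligand Wnt7b was at 0.963, 1.12, 1.01 and 0.678 CPM in MamBo38 against 282 CPM (log2 fold change -8.25 ± 0.18, edgeR adjusted p = 3.66e-06), and Wnt5b was 69.4-fold lower. Wnt5a, the ligand of Ror2, was at 26.2, 19.4, 24.7 and 26.4 CPM against 1.02 CPM (log2 fold change 4.56 ± 0.32, edgeR adjusted p = 1.12e-04). The receptors Fzd3 and Fzd6 were at least 86.4-fold lower and 13.2-fold lower, the co-receptor Lrp5 8.08-fold lower, and the nuclear factor Lef1 28.1-fold lower. The secreted inhibitor Wif1 was at 0 to 0.144 CPM against 28.7 CPM, and Dkk2 was 105-fold higher (95% counting interval 29 to 866).

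Angiogenesis and hypoxia genes were called higher in 10 of 19 tested genes and lower in 7. Ptgs2, the gene of cyclooxygenase 2, was at 2609, 2351, 2127 and 1921 CPM in MamBo38 and at 50.8 CPM in MamBo43 (log2 fold change 5.47 ± 0.28, edgeR adjusted p = 3.20e-05). Angptl2 was 96-fold higher and Adm, the gene of adrenomedullin, 38.2-fold higher. The oxygen-regulated factors went apart, with Hif1a at 350.3, 275, 296 and 312 CPM against 80.8 CPM (log2 fold change 1.93 ± 0.18, edgeR adjusted p = 3.50e-04) and Epas1, the gene of Hif-2 alpha, at 23.8, 23.8, 29.2 and 26.1 CPM against 268 CPM (log2 fold change -3.38 ± 0.13, edgeR adjusted p = 1.42e-05). Of their known targets, Ndrg1 was 10.3-fold higher and Bnip3 3.36-fold higher, while Egln3 was 10.4-fold lower and Car9 13.2-fold lower. Of 18 tested glycolysis genes, 9 were called higher and 0 lower. The glucose transporter Slc2a1 was 4.3-fold higher, the lactate transporter Slc16a3 10.8-fold higher, hexokinase Hk2 3.42-fold higher and pyruvate kinase Pkm 3.24-fold higher. Ldha was at 872 to 909 CPM against 760.4 CPM and was not called.

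In the cell cycle list 10 of 30 tested genes were called higher (33.3%), 4 lower (13.3%) and 16 were not called. Of all tested genes, 19.5% were higher and 19.2% lower. In the test against a 2-fold difference, 8 genes of the list were called in all. Ccnd2, a D-type cyclin, was at 200.2, 228, 191 and 198 CPM in MamBo38 and at 8.89 CPM in MamBo43 (log2 fold change 4.52 ± 0.20, edgeR adjusted p = 1.89e-05). Myc was at 411, 405, 446 and 403 CPM against 82.1 CPM (log2 fold change 2.34 ± 0.15, edgeR adjusted p = 7.12e-05), and the inhibitor Cdkn1a (p21) at 462, 488, 487 and 443 CPM against 60.2 CPM (log2 fold change 2.97 ± 0.15, edgeR adjusted p = 3.49e-05). Rb1 was 3.33-fold lower. Proliferation genes were high in MAMBO38NT241016 in particular. Mki67 was at 29.9, 115, 27.4 and 32.6 CPM against 20.5 CPM and was not called (log2 fold change 1.32 ± 0.92, edgeR adjusted p = 0.266), and Top2a was at 79.7, 259.7, 75.2 and 93 CPM against 39.5 CPM. Cdk1 was at 49.7, 111, 53.4 and 48.8 CPM against 18.7 CPM (log2 fold change 1.81 ± 0.55, edgeR adjusted p = 0.0335).

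A run of neighbouring genes on chromosome 4 had no reads in MamBo38. Cdkn2a and Cdkn2b, which encode inhibitors of the cell cycle, had 0 counts in all 4 MamBo38 libraries and were at 3.49 and 18.4 CPM in MamBo43. The neighbour Mtap, an enzyme of methionine salvage, had 0 counts in all 4 and was at 122 CPM (at least 811-fold lower, edgeR adjusted p = 2.06e-04). It is outside the rule for named genes and was added after the values of its neighbours had been seen. The 3 genes lie between 89137122 and 89311039 on GRCm38. The MamBo43 TRT libraries had 68.1 and 31.6 CPM of Mtap, 2.4 and 1.15 CPM of Cdkn2a and 21.2 and 9.41 CPM of Cdkn2b. On one side Klhl9, from 88718292, was at 53.9 to 73.7 CPM in MamBo38 against 102.8 CPM and was not called. On the other side Dmrta1 and Elavl2 had too few counts for a test, and Tusc1, from 93334138, was at 2.01 to 3.76 CPM against 2.39 CPM and was not called.

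Differences also followed position on a larger scale. On chromosome 15, 221 of 535 tested genes (41.3%) were called higher and 75 (14%) lower, and the median log2 ratio was 0.803, against 0.02 over all tested genes. Each MamBo38 library showed this, with medians of 0.727, 0.84, 0.798 and 0.764 relative to MamBo43, and the medians lay between 0.73 and 1.04 in every bin of 20 Mb. On chromosome 10, 208 of 656 genes (31.7%) were higher and 78 (11.9%) lower, with a median of 0.482 and library medians of 0.441 to 0.521. In the MamBo43 TRT libraries the medians relative to the same untreated MamBo43 library were 0.523 and 0.711 on chromosome 15 and 0.318 and 0.29 on chromosome 10. In the MamBo89 libraries they were -0.182 to 0.234 and -0.255 to -0.066. On the other chromosomes the median lay between -0.272 (X) and 0.202 (chromosome 11).

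Chromosome 4 changed along its length. Its median was -0.97 from 20 to 40 Mb, -0.74 from 40 to 60 Mb and 0.76 from 140 to 160 Mb. Among 12115 windows of 50 neighbouring tested genes, 95% had a median between -0.63 and 0.90. The window with the highest median, 1.448, ran on chromosome 15 from Rbfox2 to Cby1 (77078990 to 79667660), and 27 of its genes were called higher. A window on chromosome 4 from Srm to Lrrc47 (148591503 to 154021513) reached 1.196 with 34 genes called higher, and one on chromosome 10 from Cfap54 to Nap1l1 (92775619 to 111498150) reached 1.237. The lowest median, -1.128, was on chromosome 4 from Ubap1 to Fbxo10 (41348996 to 45084604), with 27 genes called lower. Copy number was not measured in these files, and its part in these values was not tested.

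**Figure D4:**
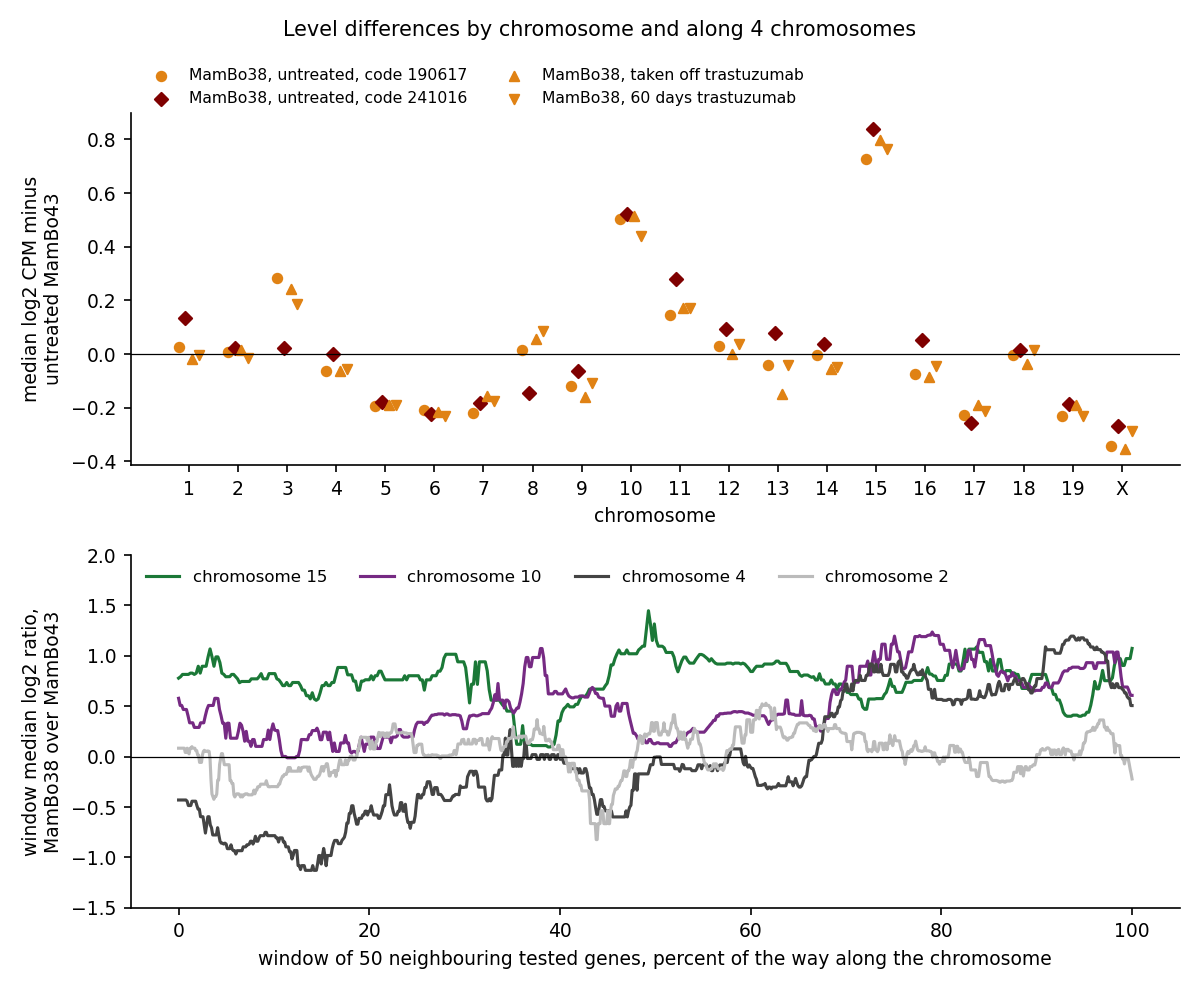
Top, median log2 CPM of the tested genes of each chromosome in each MamBo38 library minus untreated MamBo43. Bottom, median log2 ratio of MamBo38 over MamBo43 in windows of 50 neighbouring tested genes, ordered by position in percent of the windows of a chromosome; chromosome 15 stays above 0 along its length, and chromosome 4 passes from below to above 0.

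Markers of other cell types were summed to describe what the cultures held. The luminal epithelial markers summed to 35.7 to 43.4 CPM in MamBo38 and 3946 CPM in MamBo43, and 10 of 11 tested were called lower. Krt19 had 0 counts in all 5 libraries. The fibroblast markers summed to 4649 to 5227 CPM against 362 CPM, with 6 of 8 tested called higher. Lum had 0 counts in all 5 libraries, and Thy1 was at 0 to 0.0558 CPM against 2.15 CPM. Of 9 myoepithelial markers, Krt5 had 0 counts in all 5, and the sum was 21.2 to 50.4 CPM against 30.6 CPM. The 5 tested ones went both ways, with 3 called lower and 2 higher. The pericyte markers summed to 142.7 to 190.4 CPM against 227 CPM, with Cspg4 21.6-fold higher and Mcam 59.7-fold lower. Of 16 immune markers, 12 were at or under the floor in all 5 libraries. Their sum of 31.6 to 52.6 CPM against 2.27 CPM was mostly Cd68, a lysosomal protein. The sums of endothelial, adipocyte, erythroid and skeletal muscle markers did not pass 5.05 CPM in any of the 5 libraries. In bulk samples, a smaller share of cells of one kind and less RNA per cell cannot be told apart, and the part that other cells took in these results was not tested.

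The study names 46 genes that could be tested, and of these 23 were called higher, 19 lower and 4 were not called (Itgb1, Stat3, Tgfb1 and Twist1). They were chosen on these samples and are no independent evidence of a direction. Among those not yet described, Igfbp4, an insulin-like growth factor binding protein, was at 1376, 1350.2, 1549 and 1639 CPM in MamBo38 and at 22.7 CPM in MamBo43 (log2 fold change 6.03 ± 0.24, edgeR adjusted p = 1.39e-05), opposite to Igfbp5. Fgfbp1, a carrier of fibroblast growth factors, was at 0 to 0.0597 CPM against 84.7 CPM. The spectrin gene Sptan1 was 4.07-fold lower, the kinase Pak1 3.34-fold lower, the phosphatase Ptpn1 2.39-fold lower and Efnb1, an ephrin, 4.21-fold lower. Ceacam1 was 7.74-fold lower, and its level is uncertain because it resembles other Ceacam genes. Qsox1 was 2.97-fold higher.

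**Figure D5:**
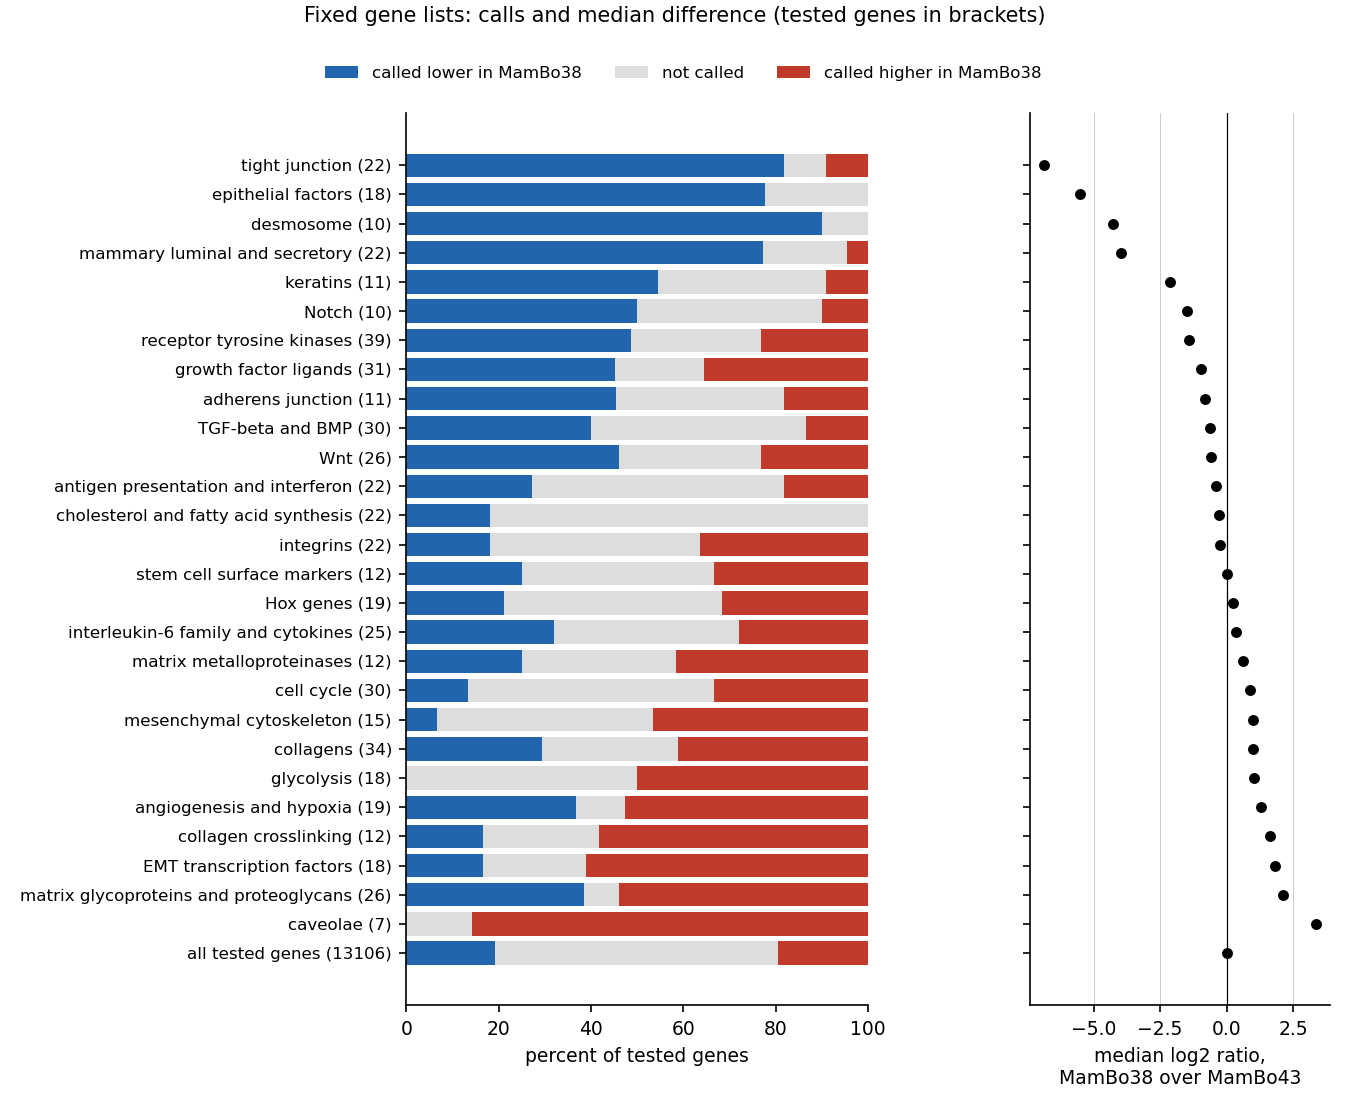
Left, percent of the tested genes of each list of a pathway or gene family (number in brackets) called lower (blue), not called (grey) or called higher (red) in MamBo38. Right, median log2 ratio of MamBo38 over MamBo43 with levels set to at least 3 counts; of the lists drawn, the tight junction list has the lowest median (-6.89) and the caveola list the highest (3.37), and all tested genes have 0.02.

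The MamBo43 TRT libraries share the untreated MamBo43 library as their reference, so their values are given beside those of MamBo38 with no test. Many epithelial genes stood between the untreated line and MamBo38 there, but not every list did. In MamBo43 cultures under trastuzumab the paper found some remaining HER2-positive cells and islets of polygonal cells. The levels here are those of bulk cultures, and the part of such a mixture in them was not tested. Cdh1 was at 775 CPM in untreated MamBo43, at 201 and 71.9 CPM in MamBo43 TRT and at 0.835 to 1.51 CPM in MamBo38. Krt8 was at 471 and 64.3 CPM in MamBo43 TRT and Esrp1 at 351 and 82.1 CPM. The median log2 difference from MamBo43 over the tight junction list was -2.15 and -3.72 in MamBo43 TRT and -7.19 to -6.58 in the MamBo38 libraries. Over the luminal and secretory list it was -3.75 and -3.91, beside -4.27 to -3.79 in MamBo38. Over the adherens junction list it was -0.81 and -1.2, beside -1.03 to -0.48 in MamBo38. Fn1 was at 34155 and 39761 CPM and Zeb2 at 116 and 144 CPM, the former above all MamBo38 libraries, and Vim was at 527 and 543 CPM, below all of them. Postn was at 2226 and 1708 CPM, between the 2952 CPM of untreated MamBo43 and the 22.4 to 36.3 CPM of MamBo38, and Krt14 at 9.91 and 111 CPM, above both lines.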

How the data were processed

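RNA was read in 11 libraries made with the TruSeq RNA v2 kit, which does not keep the strand, as single-end reads. Per the labels and methods, the authors aligned reads to mouse genome build mm10 with STAR 2.5 and counted genes with RSEM 1.3.0 in SeqBox. The authors deposited expected counts per gene, which are all whole numbers and were not rounded further. Overlapping genes and near-identical copies can share reads.

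The genes, lists and tests were chosen with earlier results of these data known. Of 21846 genes, 13106 passed edgeR's filterByExpr with a minimum count of 10. Library sizes were scaled by TMM over 11 libraries, and 4 MamBo38 libraries were compared with 1 of MamBo43 by edgeR 4.0.16 quasi-likelihood in R 4.3.3, where a call needed a Benjamini-Hochberg adjusted p under 0.1 and a fold of at least 2 in size, as in the study. The standard error is the fold change over the square root of F. Folds are ratios of mean CPM. A gene with 0 counts in a group has a bound computed at 3 counts in each library, and one with 1 to 3 counts has an exact 95% Poisson interval, which covers counting error only. Named were the 10 genes with the largest floored ratio in each direction, and up to 4 members of each list with the largest ratios, members against the list's majority, and genes the study names; other list members and neighbours were named after their values were seen, and some genes that the rule takes in are not reported here. On simulated data, 99% of genes changed 8-fold were called among 12828 genes, and 27 unchanged ones. Gene positions are from GENCODE M21 on GRCm38, matched for 21804 identifiers. Alternatives were other scaling, filters, thresholds, DESeq2 1.42.0, fewer or more libraries and the code as a covariate.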

Additional observations from a re-analysis of the deposited data

Results flagged for a closer look

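In 32 of 222 named genes (14.4%), 1 MamBo38 library lay far from the other 3, with a gap to the nearest that passed Dixon's 95% limit for 4 samples as a share of the range. Chance alone sets off this rule in about 1 in 20 groups. In 31 of them the library was MAMBO38NT241016, the only one of its line that shares the code of MamBo43, and it was the highest in 25 genes and the lowest in 6. The values below are CPM in that library, with the nearest other MamBo38 library in brackets.

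The proliferation genes stood high there, with Cdk1 at 111 (nearest 53.4), Top2a at 259.7 (nearest 93) and Mki67 at 114 (nearest 32.6). Among genes called lower in MamBo38, it was the library nearest to MamBo43 for the junction and epithelial genes Grhl2 at 0.391 (nearest 0) and Nectin4 at 0.502 (nearest 0.179). The same held for the receptor and surface genes Egfr at 34.1 (nearest 16.4), Itga3 at 42.7 (nearest 35.2), Lgr6 at 0.279 (nearest 0.0753) and Dll1 at 4.35 (nearest 1.44), the secreted factors Cxcl1 at 144 (nearest 52.5) and Pdgfd at 0.502 (nearest 0.0753), and the enzymes Mmp15 at 1.06 (nearest 0.289), Egln3 at 86.5 (nearest 53.9) and Scd2 at 627 (nearest 434). Among genes called higher, it was the farthest from MamBo43 for Acta2 at 26.6 (nearest 9.05), Angptl2 at 419.7 (nearest 266), Bmp6 at 71 (nearest 52.2), Cavin1 at 517 (nearest 304) and Cd44 at 289.9 (nearest 194), and likewise for Crabp1 at 126 (nearest 51.9), Itga5 at 626 (nearest 409), Jag1 at 58.9 (nearest 38.9), Loxl2 at 68.8 (nearest 51.3) and Sparc at 1273 (nearest 784). It was the nearest to MamBo43 for the called genes Fn1 at 15590 (nearest 23750), Hk2 at 70.0 (nearest 103), Nectin3 at 14.3 (nearest 22.7), Ugt1a6b at 93.6 (nearest 127) and Xdh at 350.4 (nearest 705). In none of these called genes did it reach the level of MamBo43. Of genes not called, it had Gata3 at 40.3 (nearest 34.3) and Stat3 at 196 (nearest 302). The remaining value was in the library with 60 days of trastuzumab, where Cdh1 was at 1.51 CPM, with the nearest other MamBo38 library at 0.914 CPM.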

How the results depend on the processing

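The count of called genes stayed within 1.5 times 5073 under every alternative tried except one: with at least 10 counts required in every library, 10882 genes were tested and 3316 called, 1499 of them lower, since that filter removes genes missing in one line. Without 1 MamBo38 library, 4827 to 5302 genes were called. The range was 2427 to 2679 for genes called higher in MamBo38 and 2400 to 2623 for genes called lower in MamBo38. DESeq2 called 4912, of which 4772 were shared, glmTreat, which tests against a 2-fold difference, 3766, and the fit with the library code as a covariate 5607, of which 4692 were shared. Under glmTreat the calls of the cell cycle, mesenchymal cytoskeleton and cholesterol and fatty acid synthesis lists went from 14, 8 and 4 to 8, 5 and 2. With at least 10 counts in every library, the calls of 17 of 29 lists stayed within 1.5 times. Those of the tight junction, keratin and Hox lists went from 20, 7 and 10 to 4, 0 and 2. DESeq2 took the mesenchymal cadherin list from 2 calls to 1. No gene called in both fits changed direction under any setting. Among the genes of the lists, Krt80 had a log2 fold change of -1.56 with the code as a covariate. In the pair with the same code, on which that fit rests, it was -1.57. Over all 4 MamBo38 libraries it was 0.16 (not called), and the cause was not tested. DESeq2 lost the calls of Cldn15 and Timp4. Calls of Il6st, Scd2, Timp3 and Vegfa were lost with the code as a covariate, and those of 12 named genes, among them Pdgfrb, Cd44 and Cdk1, in the test against a 2-fold difference. Leaving out MamBo38 replicate 1, 3 or 4 cost 2, 1 and 1 of the calls of named genes (Cldn15 each time, and Krt13 without replicate 1), and leaving out replicate 2 cost 0. MamBo43 has 1 library, which cannot be left out, so how far another culture of it would move these values is unknown. No paired analysis was possible because MamBo43 has 1 library, and the groups share fewer than 2 replicate numbers.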

Other observations

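Genes of interferon signalling and antigen presentation were called about as often as all tested genes. Of 22 tested genes, 4 were called higher, 6 lower and 12 were not called, which is 18.2% higher and 27.3% lower beside 19.5% and 19.2% of all tested genes. The median log2 ratio was -0.39. Apart from H2-K1, those called lower belong to the interferon response and its transcription factors. Irf9 was at 9.96, 11.9, 11 and 11.7 CPM against 59.8 CPM in MamBo43 (log2 fold change -2.42 ± 0.15, edgeR adjusted p = 6.93e-05), Irf7 was 6.59-fold lower and Usp18, a brake on interferon signalling, was at 0.0963, 1.73, 0.298 and 0.527 CPM against 17.6 CPM. The immunoproteasome subunits Psmb8 and Psmb10 and Nlrc5, an activator of MHC class I genes, were 3.35-fold higher, 2.13-fold higher and 3.75-fold higher. The MHC class I light chain B2m was 2.6-fold higher, while the heavy chain H2-K1 was 2.35-fold lower and H2-D1 was not called. H2 genes are similar enough to share reads, so their levels are uncertain.

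Lipid synthesis genes were called lower at about the 19.2% of all tested genes, and the Hox genes called in each direction lay in different clusters. Of 22 tested genes of cholesterol and fatty acid synthesis, 4 were called lower (18.2%), 0 higher and 18 were not called, and in the test against a 2-fold difference 2 in all were called. The regulator Srebf1 was at 98.9, 66.2, 114 and 114 CPM against 548 CPM (log2 fold change -2.48 ± 0.26, edgeR adjusted p = 5.33e-04), whereas Fasn, fatty acid synthase, was at 264 to 319.8 CPM against 331 CPM and was not called. Scd2, a fatty acid desaturase, was 2.36-fold lower, and Dhcr7, which acts late in cholesterol synthesis, was 2.23-fold lower. The difference in Scd2 did not reach 2-fold in the pair with the same code. Of 19 tested Hox genes, 6 were called higher (31.6%) and 4 lower (21.1%). Those called lower all belong to the HoxA cluster, among them Hoxa10 at 0 to 0.0963 CPM against 24.1 CPM and Hoxa9 at 0 to 0.0481 CPM against 2.98 CPM. Those called higher belong to HoxB, such as Hoxb9 at 14.2, 9.32, 13.2 and 11.8 CPM against 0.235 CPM (log2 fold change 5.66 ± 0.46, edgeR adjusted p = 2.05e-04) and Hoxb4 at 15.9, 17.7, 16.4 and 14.8 CPM against 3.84 CPM, and to HoxC, with Hoxc6 at 1.39 to 2.15 CPM against 0 counts.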
